A study of Mus musculus with 6 samples.

Results

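The genes described here are 10 members of the small leucine-rich proteoglycan (SLRP) family, namely Kera, Dcn, Bgn, Lum, Fmod, Ogn, Omd, Prelp, Aspn and Podn, out of 34714 gene symbols in the count table. They were taken by symbol. The set was put together with the low keratocan (Kera) level of the knockout mice already known, so the values of the 2 genotypes are given for the members as a description and not as a test. The 6 libraries came from gastrocnemius (Gas) muscle of wild-type (WT) and miR-92b knockout (M92KO) mice, all aged 8 weeks and untreated. The labels number 3 replicates per genotype and do not say whether these were separate animals. The M92KO mice were global knockouts of the strain C57BL/6JGpt- Mir-92bem22Cd549/Gpt, which lack miR-92b in every cell and not only in muscle fibres. The WT controls were age-matched C57BL/6 mice, and the sources used here do not call them littermates. The methods name males for the knockout. The level of Mir92b itself was not analysed here, so the genotype labels were not checked against it.

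SLRPs are secreted proteins built from a run of leucine-rich repeats, most of which carry chains of chondroitin, dermatan or keratan sulphate. They bind the surface of collagen fibrils and set fibril width and spacing, and several of them hold growth factors such as TGF-β and myostatin in the matrix. In skeletal muscle they are made mainly by fibroblasts of the connective tissue and by tendon cells. Fibre cells make little of them. Since whole muscle was sequenced, fewer cells of a type and less RNA per cell cannot be told apart in any value given here.

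The question for these libraries was which transcripts differ once miR-92b is missing. The microRNA hairpin gives 2 mature strands, and both sequences are shown because a transcript that carries a match to a seed is a possible direct target. The sequences are from RefSeq on GRCm38.p6, minus strand of chromosome 3, at chr3:89227126-89227147 for the 3p strand and chr3:89227165-89227188 for the 5p strand, with the seed (bases 2 to 8) in capitals.
miR-92b-3p: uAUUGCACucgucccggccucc
miR-92b-5p: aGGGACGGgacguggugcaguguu
The annotated 3′-UTRs of the members, the longest of each gene spanning 435 to 2302 bases, were searched for matches of 7 or 8 bases on the transcribed strand. Written as DNA, the 3p strand was searched with GTGCAAT against the seed, with TGCAATA against the seed less its last base and a closing A, and with GTGCAATA, which holds both. The 5p strand was searched in the same way with CCGTCCC and with CGTCCCA and with CCGTCCCA as the form that holds both. For miR-92b-3p, 1 of the 10 members, Bgn, had a match, against 14.5% of 13645 tested genes with an annotated 3′-UTR. For miR-92b-5p, 0 of 10 had a match, against 5.93% of the same genes. The site in Bgn is the 8-base form and consists of the last 8 bases of an annotated transcript, on the plus strand of chromosome X at the end of chrX:73495916-73495933 (GRCm38), shown with the match in capitals.
Bgn: aagaaacactGTGCAATA
Kera, Dcn, Fmod, Ogn and Prelp hold none of these matches in their annotated 3′-UTRs. They are the members that were lower in M92KO muscle at an unadjusted p-value under 0.05 in edgeR with every library, as described below.

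Library totals ran from 33160508 to 48209846 counts, and each M92KO total was below each WT total. Levels are in CPM, counts scaled to a common library total with TMM factors. The smallest level taken as detected, 3 counts, was worth 0.0629 to 0.0916 CPM and allows for counting error alone. The tissue label held in every library, as 6 muscle fibre genes such as Acta1 and Ckm summed to between 90464 and 103336 CPM. 2 libraries, both numbered 1, stood apart from the rest in some bone and cartilage transcripts. Ibsp, which encodes bone sialoprotein, stood at 34.9 CPM in WT replicate 1 and 8.06 CPM in M92KO replicate 1, and at 0.570 CPM or less in the other 4. The collagenase gene Mmp13 stood at 79.5 and 23.5 CPM in these 2 libraries and at 1.89 CPM or less elsewhere. The list of 8 bone and cartilage genes summed to 43.8 and 13.6 CPM in them, against 2.92 to 5.36 CPM in the other 4, with Matn1 at 0 counts throughout. Most of the sum in these 2 libraries was Ibsp. Acan and Sp7 were also highest in them, but Col9a1, Hapln1, Bglap and Sost did not set them apart. Col9a1 stood at 3.92 and 4.15 CPM in them and at 4.17 CPM in WT replicate 2, and Bglap was highest in WT replicate 2 at 0.337 CPM. M92KO replicate 1 also differed most from its group, with a chi-square per gene of 58.3 and 57.99 against the other M92KO libraries and of 11.1 between those other libraries. For the members, Ecm2 and the gene lists, values without both of these libraries are therefore given as well, though not for correlations.

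Every member was detected in every library and all 10 passed the filter on low counts. Dcn, which encodes decorin, was the most abundant of them in WT muscle at 69.7 ± 2.03 CPM per kilobase of joined exons (SD, n = 3). Lum followed at 28.1 ± 4.70, Aspn at 18.6 ± 2.63, Ogn at 15.2 ± 0.781 and Bgn at 13.8 ± 1.65 CPM per kilobase (SD, n = 3). Ogn and Bgn had overlapping WT values and did not differ beyond their spread. Below them came Prelp at 9.66 ± 1.26, Fmod at 6.32 ± 0.709, Podn at 4.31 ± 0.550, Kera at 2.80 ± 0.575 and Omd at 0.486 ± 0.128 CPM per kilobase (SD, n = 3), each apart from its neighbours in all 3 libraries. The order depends on the length used, since the annotated exons of Dcn and Bgn include those of retained-intron transcripts. Per kilobase of the longest protein-coding transcript, Dcn stood at 231 ± 6.74 CPM (SD, n = 3) and made up 65.4% of the summed level of the family. By that length Bgn was second at 34.7 ± 4.15 CPM (SD, n = 3), with values that overlap those of Lum, and Fmod and Podn also overlapped. Kera was the second least abundant member by either length, and in M92KO muscle it remained above Omd, at 0.907 ± 0.287 against 0.506 ± 0.101 CPM per kilobase (SD, n = 3).

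**Figure D1:**
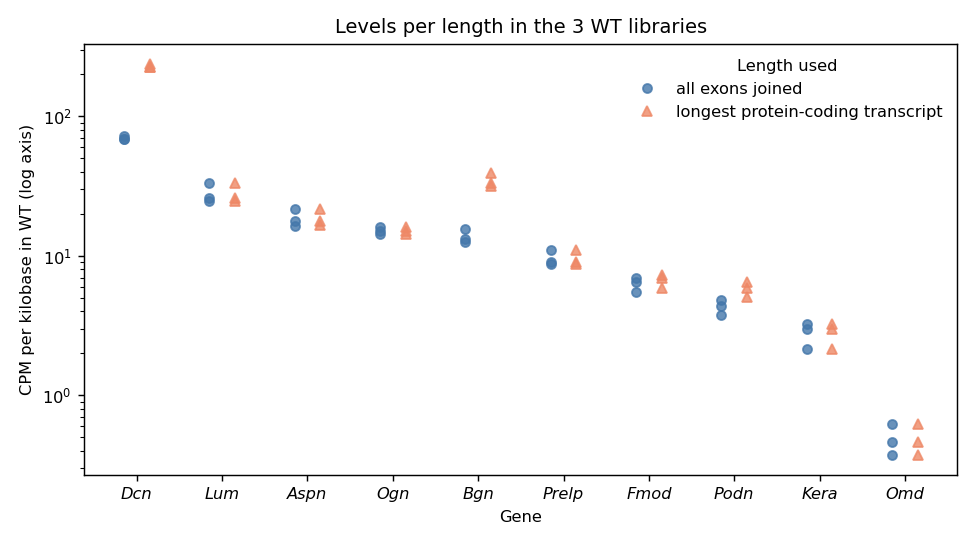
Level of each member in the 3 WT libraries, in CPM per kilobase on a log axis, with length taken as all exons joined (circles) or as the longest protein-coding transcript (triangles). Dcn lies highest under both lengths, Bgn moves from 13.8 to 34.7 CPM per kilobase on average, and Omd lies lowest.

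The members lie in 3 groups of neighbours and 2 single positions in the mouse genome (GRCm38, GENCODE M21). Dcn (ENSMUSG00000019929, chromosome 10, 97479609 to 97518143), Lum (ENSMUSG00000036446, 97565128 to 97572703) and Kera (ENSMUSG00000019932, 97606879 to 97613692) follow each other on the plus strand of chromosome 10, with gaps of 46.98 and 34.2 kb and 0 other protein-coding genes between them. Aspn, Omd and Ogn stand in a row on the plus strand of chromosome 13, with gaps of 14.9 and 15.2 kb. Prelp and Fmod are 116 kb apart on opposite strands of chromosome 1. Bgn lies on chromosome X and Podn on chromosome 4. An exon of Aspn shares 7 bases with Cenpp and Prelp shares 350 bases with the antisense gene Gm15851. The strand setting of the counting is not given in the sources used here, so reads from such overlaps cannot be told apart.

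Of the 10 members, 8 had a lower fitted level in M92KO muscle, as did 50.0% of the 15788 genes tested. The median log2 fold change of the members was -0.28, against -0.0001 over all genes tested. For 5 members, Kera, Dcn, Fmod, Ogn and Prelp, the level was lower at an unadjusted p-value under 0.05 in edgeR's quasi-likelihood test. That count stands beside 6.92% of all genes tested that were lower by the same rule, and as the set was chosen on this contrast, nothing is read from it. For 4 members (Kera, Dcn, Ogn and Prelp) the 3 M92KO values all lay below the 3 WT values, which was so for 9.58% of all genes tested. The other 6 had overlapping groups. By the first rule 0 members were higher (5.47% of all genes), and by the second 0 (8.77%). After adjustment over all 15788 genes, edgeR left 0 with an adjusted p-value under 0.05 (smallest 0.124), and 1955 (12.4%) had an unadjusted p-value under 0.05. By DESeq2, 312 genes (1.98%) passed an adjusted p-value of 0.05, and Kera and Dcn were 2 of these. Without WT replicate 1 alone, 3 members (Kera, Dcn and Ogn) were lower by the edgeR rule, beside 5.87% of genes. Without both libraries numbered 1, Kera, Dcn and Fmod were the 3 members lower by the edgeR rule, beside 9.19% of genes in that fit. The median log2 fold change of the members was then -0.080.

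**Figure D2:**
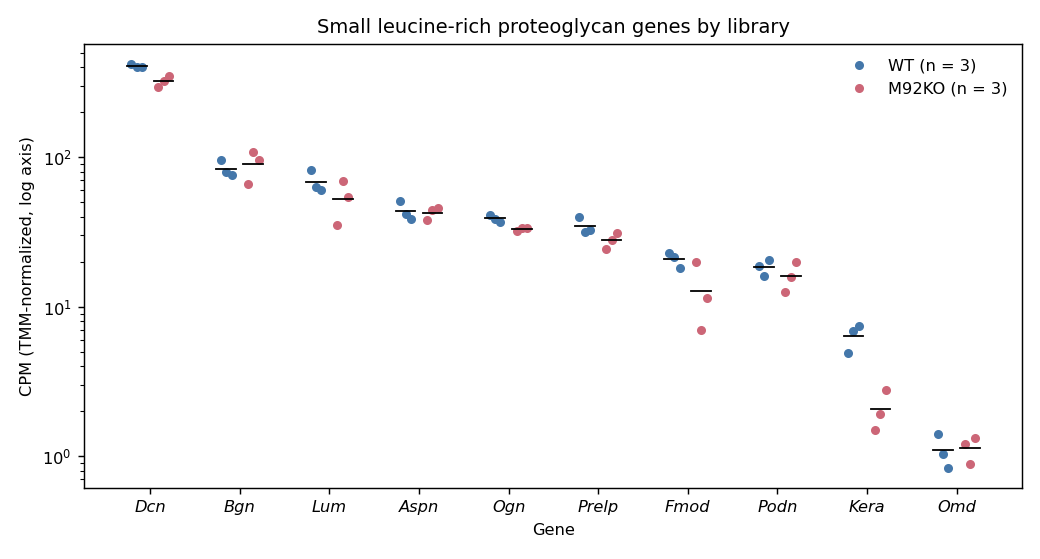
CPM of the 10 members in each library on a log axis, with WT in blue, M92KO in red and black lines at the means of 3 libraries. The groups are apart for Kera, Dcn, Ogn and Prelp, and overlap for the other 6 members.

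Keratocan belongs to class II of the family and is best known as a keratan sulphate proteoglycan of the cornea, where it keeps collagen fibrils thin and evenly spaced. The raw counts of Kera were 226, 265 and 352 in WT and 52, 63 and 101 in M92KO muscle. After scaling, WT stood at 4.89, 6.86 and 7.38 CPM and M92KO at 1.497, 1.92 and 2.78 CPM. The highest M92KO library lay below the lowest WT library. WT muscle averaged 6.38 ± 1.31 CPM (SD, n = 3). M92KO muscle averaged 2.07 ± 0.654 CPM (SD, n = 3), or 32.4% of the WT mean. The log2 fold change of Kera was -1.62 with a standard error of 0.25, between -1.90 and -1.43 with 1 library left out, and -1.59 (standard error 0.21) without both libraries numbered 1. By size it was number 27 from the lowest of all 15788 genes tested. Cornea markers were close to absent, as Krt12 had 0 counts in all 6 libraries and Aldh3a1 and Pax6 together with it summed to between 0.122 and 0.419 CPM.

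The neighbours of Kera on chromosome 10, Dcn and Lum, had smaller fitted differences, and the Lum groups overlapped. Decorin is a class I proteoglycan with a single dermatan or chondroitin sulphate chain that binds collagen fibrils, TGF-β and myostatin. Dcn stood at 420.4, 399.7 and 400.03 CPM in WT and at 295, 322 and 351 CPM in M92KO muscle, so the groups were apart. WT muscle averaged 407 ± 11.8 CPM (SD, n = 3) and M92KO muscle 323 ± 28.1 CPM (SD, n = 3). On the log2 scale Dcn differed by -0.33 (standard error 0.080). This was -0.25 without both libraries numbered 1. Lumican, a class II keratan sulphate proteoglycan of skin, tendon and cornea, had 81.9, 63.6 and 60.7 CPM in WT and 35.2, 69.4 and 53.9 CPM in M92KO muscle. M92KO replicate 1 had the lowest Lum value and M92KO replicate 2 lay inside the WT range. The log2 fold change of Lum was -0.38 with a standard error of 0.22, -0.62 without M92KO replicate 2 (then with an unadjusted p-value under 0.05) and -0.012 without both libraries numbered 1. The ratio of Kera to Lum CPM was 0.0598, 0.108 and 0.122 in WT and 0.0425, 0.0277 and 0.0516 in M92KO muscle, so the M92KO ratios all lay below the WT ratios. As the low Kera level was known when the set was made and enters this ratio, nothing further is read from it. Epyc, the next family gene after Kera at a gap of 30.4 kb, had 4 counts in 1 WT library and 0 in the other 5 and was not tested.

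Fibromodulin, a class II member abundant in tendon that binds collagen and the cross-linking enzyme lysyl oxidase, varied most, relative to its mean, between M92KO libraries. Fmod stood at 22.8, 21.6 and 18.3 CPM in WT and at 19.8, 7.02 and 11.4 CPM in M92KO muscle. M92KO replicate 1, which carried bone transcripts, lay inside the WT range, and the other 2 lay below it. WT muscle averaged 20.9 ± 2.34 CPM (SD, n = 3) and M92KO muscle 12.7 ± 6.48 CPM (SD, n = 3). The log2 fold change of Fmod was -0.71 with a standard error of 0.30, moved to -1.18 without M92KO replicate 1 and to -0.42 without M92KO replicate 2, and was -1.10 (standard error 0.21) without both libraries numbered 1. When a single library was dropped, Fmod kept an unadjusted p-value under 0.05 in 1 of 6 fits, the one without M92KO replicate 1.

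Prelp, which encodes a class II protein that links basement membranes to collagen, is the neighbour of Fmod on chromosome 1. It stood at 40.1, 31.8 and 32.9 CPM in WT and at 24.4, 28.1 and 31.3 CPM in M92KO muscle, so the groups were apart by a narrow margin. The log2 fold change of Prelp was -0.32 with a standard error of 0.12, and -0.12 without both libraries numbered 1, where its unadjusted p-value was no longer under 0.05. The same loss followed when WT replicate 1 (-0.21), M92KO replicate 1 (-0.24) or M92KO replicate 2 (-0.33) alone was left out. Omd, which encodes osteomodulin, a keratan sulphate proteoglycan of bone and teeth, is the remaining class II member. It had only 29 to 65 counts per library, with 1.41, 1.04 and 0.838 CPM in WT and 1.21, 0.886 and 1.32 CPM in M92KO muscle. The Omd groups overlapped, and its log2 fold change of 0.061 had a standard error of 0.28, so no difference was detectable in these libraries. It was 0.25 (standard error 0.34) without both libraries numbered 1.

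Ogn encodes osteoglycin, also called mimecan, a class III member first found in bone and common in vessel walls and muscle connective tissue. Relative to its mean, it was the least variable member within the M92KO libraries. Ogn stood at 41.1, 38.8 and 37.1 CPM in WT and at 32.3, 33.5 and 33.8 CPM in M92KO muscle. The means were 38.97 ± 2.004 and 33.2 ± 0.786 CPM (SD, n = 3 each), which differ by -0.23 on the log2 scale (standard error 0.067). Its unadjusted p-value stayed under 0.05 whichever library was dropped, and was above it without both libraries numbered 1 (-0.17, standard error 0.074). Aspn, separated from Ogn by Omd on chromosome 13, encodes asporin, a class I member with a run of aspartates in place of a sugar chain. Aspn stood at 50.7, 41.6 and 38.8 CPM in WT and at 38.0, 44.3 and 45.5 CPM in M92KO muscle, with overlapping groups and a difference of -0.036 (log2, standard error 0.11), which was 0.16 without both libraries numbered 1.

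Bgn encodes biglycan, the class I relative of decorin, which binds the dystrophin-associated complex at the muscle membrane and innate immune receptors. It stood at 95.4, 80.2 and 76.4 CPM in WT and at 66.8, 109 and 95.6 CPM in M92KO muscle. M92KO replicate 1 was the lowest of all 6 libraries and the other M92KO libraries were the highest 2, so the groups overlapped. The log2 fold change of Bgn, the member with the seed match printed above, was 0.11 with a standard error of 0.17. This was -0.050 without M92KO replicate 2, 0.29 without M92KO replicate 1 and 0.39 (standard error 0.080) without both libraries numbered 1, and in the last 2 fits Bgn was higher at an unadjusted p-value under 0.05. The ratio of Bgn to Dcn CPM was 0.227, 0.201 and 0.191 in WT and 0.226, 0.340 and 0.272 in M92KO muscle, with overlap between the highest WT and the lowest M92KO value. Podn encodes podocan, a class V member known to slow smooth muscle growth. It stood at 18.6, 16.0 and 20.7 CPM in WT and at 12.5, 15.9 and 19.9 CPM in M92KO muscle, with overlapping groups. Podn differed by -0.19 (log2, standard error 0.17). The difference ran from -0.042 without M92KO replicate 1 to -0.38 without M92KO replicate 3, then with an unadjusted p-value under 0.05, and was -0.035 without both libraries numbered 1.

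**Figure D3:**
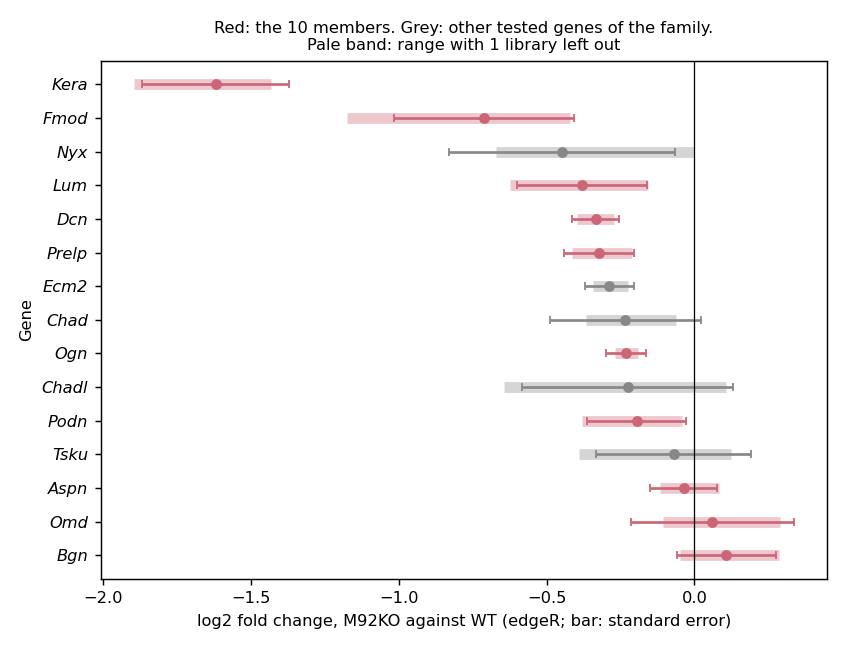
log2 fold change of M92KO against WT with its standard error for the 10 members (red) and the 5 other tested genes of the family (grey), with the range over 6 fits, each lacking a different library, as a pale band. Kera lies at -1.62 and Fmod at -0.71, and the bands of Aspn, Omd, Bgn, Tsku and Chadl cross 0.

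The M92KO libraries did not share a single pattern over the members. As a percent of the WT mean, M92KO replicate 1 stood at 51.3% for Lum, 79.5% for Bgn and 94.7% for Fmod, and M92KO replicate 2 at 101%, 130% and 33.6%. M92KO replicate 3 lay between them for all 3 genes. The ratio of Lum to Fmod CPM thus ran from 1.78 to 9.88 over the M92KO libraries, while it lay between 2.95 and 3.58 in WT. For Kera the same 3 libraries stood at 23.5%, 30.2% and 43.6%. In M92KO replicate 1, 8 of the 10 members lay below their WT range, as did 34.3% of all genes tested. In replicates 2 and 3, 6 members did so in each, beside 32% and 32.2% of all genes. As the set was chosen on this contrast, nothing is read from these counts. The summed level of the 10 members was 777, 701 and 693 CPM in WT and 527, 632 and 647 CPM in M92KO muscle, of which Dcn took between 50.9% and 57.7%.

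**Figure D4:**
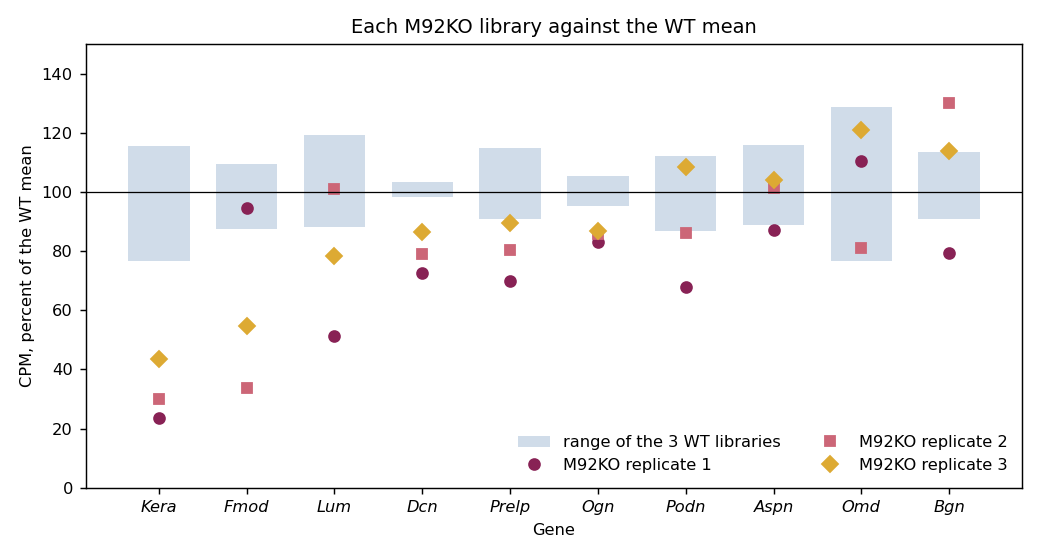
CPM of each member in the 3 M92KO libraries as a percent of the WT mean, with the range of the 3 WT libraries as a blue band. All 3 libraries lie below the band for Kera, Dcn, Prelp and Ogn, and replicates 1 and 2 lie in opposite orders for Fmod and for Lum and Bgn.

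After the group means were taken off, the log2 CPM of Bgn and Lum went together over the 6 libraries (Pearson's r = 0.99), and so did those of Aspn and Ogn (r = 0.97) and of Aspn and Prelp (r = 0.93). Fmod went against Lum (r = -0.80) and Bgn (r = -0.79). On this centred scale Kera had r = 0.12 with Lum and 0.56 with Dcn, and its highest value was 0.71 for Podn. With the genotype difference left in, Kera had r = 0.93 with Dcn and 0.55 with Lum. These values describe 6 libraries of 2 genotypes, and are given without a test. For Bgn and Lum, the library numbered 1 lay furthest from the mean in each group. No correlation without these libraries is given, and their part in the values of r was not tested. The genes most like a member were ranked on the uncentred values, which hold the genotype difference. Among 13327 other genes with a mean of at least 1 CPM, those whose log2 CPM was most like Kera over the 6 libraries were Bend7, the kinase gene Hipk1, the stress response factor gene Nfe2l2, Dlc1 and the importin gene Ipo13 (r from 0.992 to 0.998). Those most like Dcn were Ntn4, which encodes a laminin-related netrin, Arid5b, Kdelr3, Map3k3 and Lrrc8c (r from 0.986 to 0.997). Their log2 fold changes ran from -0.81 for Ntn4 to -0.16 for Ipo13, and the shared sign follows from how they were chosen.

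The rest of the family was sparse in muscle. Of 8 further genes, Epyc, Optc and Podnl1 were not tested for low counts and 5 were tested. Ecm2, which lies 11.7 kb before Aspn on chromosome 13, was the only abundant one, with 44.6, 39.9 and 45.4 CPM in WT and 32.3, 37.8 and 36.3 CPM in M92KO muscle. Its groups were apart and the difference was -0.29 (log2, standard error 0.084, adjusted p = 0.255 from edgeR). It was -0.20 (standard error 0.087) without both libraries numbered 1, where the median of the 5 tested genes moved from -0.23 to -0.20. Chad (-0.23), Chadl (-0.23), Nyx (-0.45) and Tsku (-0.070) had overlapping groups at means of 0.818 to 2.12 CPM, and of these Chadl shares 1023 exon bases with L3mbtl2. Of the 8 genes, only Ecm2 (1 for miR-92b-3p) and Nyx (1 for miR-92b-5p) had a seed match in an annotated 3′-UTR. Whether Bgn, Ecm2 or Nyx is a direct target was not tested.

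Partners of the SLRPs were described from lists of known genes, to be read beside 6.92% lower and 5.47% higher over all genes. These shares belong to the fit with every library. Without both libraries numbered 1, 9.19% of genes were lower, and the share higher is not given here. Counts from fits that lack libraries, here and below, are therefore not to be read against 6.92% and 5.47%. The number of all genes with an unadjusted p-value under 0.05 in edgeR differed between fits, at 1955 with every library and 1222 without WT replicate 2. A shift in a list's count between fits is therefore not read as a change in that list. Of 13 tested collagens that SLRPs bind or lie beside, 4 were lower and 0 higher at an unadjusted p-value under 0.05, and the median of this list was -0.31 on the log2 scale. The 4 were Col5a3 (-0.26), Col1a2 (-0.53), Col1a1 (-0.55) and Col11a2 (-0.61), with adjusted p-values from edgeR between 0.247 and 0.352. WT replicate 1 had the highest Col1a1 level at 402 CPM and M92KO replicate 1 the lowest at 171 CPM, and the other 4 libraries lay between 209 and 251 CPM. Without both libraries numbered 1, the median of the collagens was -0.072, with 5 lower and 1 higher. Of 18 proteases that cut or process matrix proteins, with their inhibitors, 8 were lower and 0 higher, with a median of -0.30. Among them were the inhibitor genes Timp3 (-0.33) and Timp2 (-0.26), the gelatinase gene Mmp2 (-0.53) and the serine protease gene Htra1 (-0.35), with adjusted p-values from edgeR between 0.179 and 0.316. The count was 5 without WT replicate 1, WT replicate 3 or M92KO replicate 2. Without both libraries numbered 1, 8 were lower and 2 higher, with a median of -0.20.

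Of 24 growth factors and receptors that SLRPs engage, 5 were lower and 0 higher, with a median of -0.11. Bmp2 (-0.89), the Wnt-induced matricellular gene Ccn4 (-0.92), Tgfb3 (-0.18), the collagen receptor gene Itga1 (-0.34) and Met (-0.20) were the 5, with adjusted p-values from edgeR between 0.235 and 0.391. The count was 2 without any 1 of the WT libraries or M92KO replicate 1, and 3 without M92KO replicate 2. In the fit without both libraries numbered 1, 2 were lower and 1 higher, with a median of -0.014. Mstn, which encodes myostatin, had a log2 fold change of 0.17 and overlapping groups. Genes for making the sugar chains were read in the same way. Of 27 tested genes for chondroitin and dermatan sulphate chains, 3 were lower (Chst7 by -0.66, Chsy1 by -0.40 and Chpf by -0.35 on the log2 scale) and 0 higher, with a median of -0.080, and 0 were lower without WT replicate 3 and 1 without WT replicate 2 or M92KO replicate 3. Without M92KO replicate 1, 3 genes of this list were higher. With both libraries numbered 1 left out, 1 was lower and 2 higher, with a median of -0.0088. Of 8 tested genes for keratan sulphate chains and their base, 0 were lower or higher in edgeR at an unadjusted p-value under 0.05, with a median of -0.027, and 1 was higher without M92KO replicate 1 and 1 lower without M92KO replicate 3. With both libraries numbered 1 left out, 0 were lower and 1 higher, with a median of -0.023. Chst5, B3gnt7 and Chst4 of that list had 0 counts in every library, whereas the sulphotransferase gene Chst1 stood between 2.22 and 2.56 CPM.

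**Figure D5:**
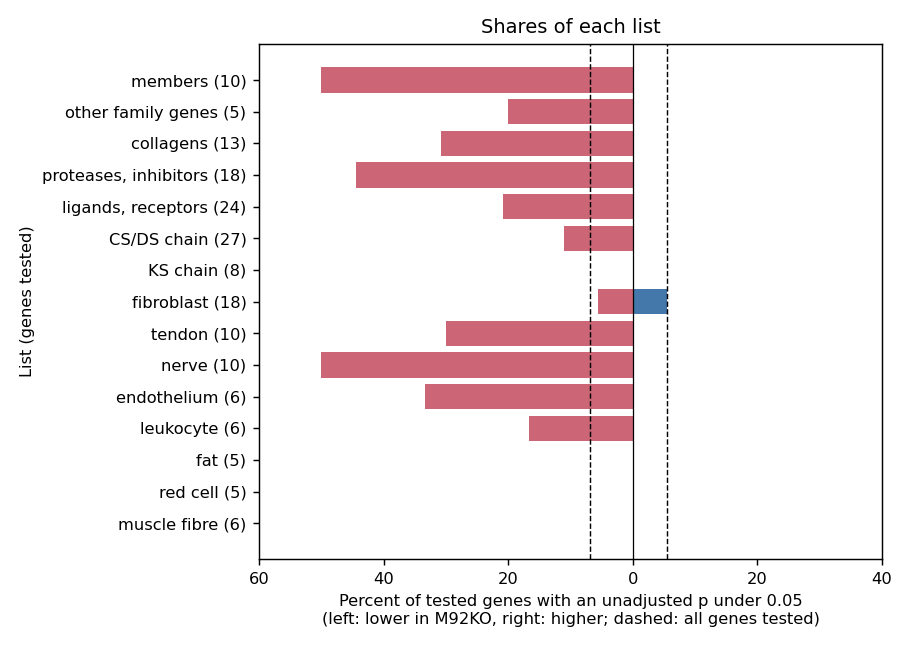
Percent of each list's tested genes that had an unadjusted p-value under 0.05 in edgeR, lower in M92KO to the left and higher to the right, with the number tested in parentheses and dashed lines at 6.92% and 5.47% for all genes tested. The fibroblast list has 1 gene on each side, and the members, proteases and nerve lists extend furthest to the left.

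Markers of the cells that make SLRPs were read beside these values. Of 18 fibroblast markers, none of them a member, 1 was lower (Smoc2, -0.38) and 1 higher (Ly6a, 0.37) at an unadjusted p-value under 0.05, and the median was -0.090. Of these markers, 4 were lower without M92KO replicate 3, and 3 higher and 2 lower without M92KO replicate 1, with 2 higher without WT replicate 1. These counts stand without the shares over all genes, which differ between the fits, so nothing is read from them. Without both libraries numbered 1, the median was 0.080, with 1 lower (beside 9.19% of genes) and 5 higher. No share over all genes is given here for the higher side of that fit, so nothing is read from the 5. Their summed level lay between 1519 and 1741 CPM in WT and between 1303 and 1688 CPM in M92KO muscle, with the lowest sum in M92KO replicate 1. Pdgfra, the defining receptor of these cells, stood between 30.7 and 32.9 CPM in WT and at 24.8, 32.7 and 31.3 CPM in M92KO muscle. The part of fibroblast number in the levels of the members was not tested.

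Of 10 tendon and tendon junction markers, 3 were lower and 0 higher, with a median of -0.37. Without WT replicate 1, WT replicate 2 or M92KO replicate 2, 1 was lower, and without both libraries numbered 1, 2 were lower and 1 higher, with a median of -0.48. Tnmd, which encodes the tendon protein tenomodulin, stood at 5.74, 5.67 and 4.36 CPM in WT and at 2.85, 2.57 and 2.98 CPM in M92KO muscle. Tnmd differed by -0.91 (log2, standard error 0.16), with an adjusted p of 0.165 in edgeR. Scx, the tendon lineage factor, had a log2 fold change of -0.37 and Col22a1 of the myotendinous junction one of -0.46. The summed level of the list overlapped, between 131 and 178 CPM in WT and between 133 and 188 CPM in M92KO muscle. Tnmd was 1 of 3 markers of the list that were lower in each M92KO library than in each WT library, as Kera and 9.58% of all genes tested were. Cilp alone of the list had a higher fitted level (0.76, with overlapping groups), and Thbs4, the most abundant marker, stood at -0.041. Over the 6 libraries Kera had r = -0.055 with the summed list, and 0.22 after the group means were taken off. In that sum Thbs4 and Cilp weigh most, with WT means of 84.1 and 29.1 CPM, against 5.25 CPM for Tnmd and 3.32 CPM for Scx. These values of r thus say little about Kera beside the less abundant markers. The part of tendon cells in the Kera level was not tested. Of 10 nerve markers, 5 were lower and 0 higher, with a median of -0.23. Among them were Mbp, Ngfr, Pmp22 and Cdh19, and the summed level of the whole list was between 145 and 198 CPM in WT and between 146 and 152 CPM in M92KO muscle. Of the list, 2 were lower without both libraries numbered 1, with a median of -0.12, and the count was 0 without WT replicate 2, 1 without WT replicate 1, 2 without M92KO replicate 1 or 3 and 3 without M92KO replicate 2.

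Among other cell types, 2 of 6 endothelial markers were lower, with a median of -0.14 (-0.083 without both libraries numbered 1, with 2 lower). The count was 4 without M92KO replicate 2 and 1 without WT replicate 2, WT replicate 3 or M92KO replicate 3, the last also with 1 higher. Of 6 leukocyte markers 1 was lower, with a median of -0.25. The count was 0 without WT replicate 2 or WT replicate 3 and 2 without M92KO replicate 3, and 1 was higher without M92KO replicate 1. In the fit without both libraries numbered 1, 2 leukocyte markers were lower and 1 higher, with a median of -0.065. Of 5 fat cell genes tested, 0 passed an unadjusted p-value of 0.05 in edgeR, with a median of 0.84 (also 0.84 without both libraries numbered 1). Without WT replicate 3, 3 of them were higher, and without M92KO replicate 3, 2 were. Of 5 red cell genes 0 passed, with a median of 0.66 (0.72 without both libraries numbered 1), and 3 were higher without M92KO replicate 2. Of 6 muscle fibre genes 0 passed, with a median of 0.018 (-0.072 without both libraries numbered 1). The part of these cell types in the levels of the members was not tested.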

How the data were processed

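The authors deposited unnormalized read counts for 34714 gene symbols in 6 Gas libraries, made with a SMARTer kit per the labels. The submitters' processing notes name GRCm38 and mm10. The aligner, counting program and strandedness are not given in the sources used here. The filter on low counts was filterByExpr at a minimum count of 10 and a minimum total of 15. Then edgeR 4.0.16 in R 4.3.3 fitted TMM-scaled counts with glmQLFit and glmQLFTest, M92KO against WT, without a covariate, adjusted by Benjamini-Hochberg over 15788 genes. CPM values use TMM-scaled totals, and correlations used log2 of CPM plus 0.25. Positions, lengths and 3′-UTRs (at least 20 bases) are from GENCODE M21, where 25694 symbols matched directly, 419 by synonym and 8554 not, with 47 ambiguous. The model was tested on simulated data. Replicates differed by more than sampling noise. The labels do not say whether replicates came from separate animals, so p-values measure only the spread between these libraries, which may be technical. Alternatives were DESeq2 1.42.0, DESeq2 size factors, other filters, limma 3.58.1 after the steps of the supplementary methods, offsets for GC content and length (lowess span 0.3), thinning, a replicate block and leaving out libraries. The fit without both libraries numbered 1 and the coding transcript length were added after seeing the data. The members, the lists and the tests were chosen with earlier results of these data known. Genes named are all members, 8 further family genes, for each list its 4 lowest p-values at most, and the 5 genes most like Kera and Dcn. Met, Mstn, Pdgfra, Thbs4 and the bone, cartilage, cornea and keratan sulphate genes were named after their values were seen. A gene of the nerve list is not reported by name here.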

Additional observations from a re-analysis of the deposited data

How the results depend on the processing

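Over 15 other settings for each of the 10 members, 130 of 150 log2 fold changes kept their direction and side of an unadjusted p-value of 0.05. Kera, Dcn and Ogn kept both under all 15. The number of members lower by that rule was 5 with every library and ran from 3 to 5 with 1 library left out. The share of all genes lower is not given for each of these fits, so nothing is read from that range. The number was 3 after the steps of the supplementary methods and 3 without WT replicate 1, and the cause was not tested. Beside these stand 3% of all 34714 symbols and 5.87% of 15955 genes. The first share is over every symbol without a filter on low counts, so it is not comparable with the second or with 6.92%. Without both libraries numbered 1 it was also 3, the median of the members moved from -0.28 to -0.080, Aspn changed sign to 0.16 and Bgn stood at 0.39, in a fit with fewer samples. Over the 6 fits lacking a library, the members' median lay between -0.39 and -0.18, the log2 fold change of Aspn from -0.12 to 0.08, that of Omd from -0.10 to 0.29 and that of Bgn from -0.050 to 0.29. The number of all genes with an unadjusted p-value under 0.05 ran from 1222 (without WT replicate 2; 1272 without WT replicate 3) to 2984 (without M92KO replicate 1, with 401 at an adjusted p-value under 0.05). The share of these genes that were higher in M92KO mice was 44.1%, and 54.4% after the steps of the supplementary methods. Same-numbered libraries deviated together only weakly over the genes tested (r = 0.0806, 0.0376 and 0.0151). All 3 values were above 0, but WT replicate 3 went better with M92KO replicate 2 (r = 0.0365), so the numbers were not taken as pairs. The libraries numbered 1, which shared bone transcripts, had the highest of these values. With the replicate block, 1691 of 15788 genes tested had an unadjusted p-value under 0.05 in edgeR, 686 of them higher in M92KO muscle. In that fit 5 members were lower by this rule, and as the set was chosen on this contrast, nothing is read from the count. Of the members, Omd had the fewest counts.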
